A study of Homo sapiens with 6 samples.

Results

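Aminoacyl-tRNA synthetases and their partner proteins were followed in HT29, a human colon adenocarcinoma cell line, given NS398 or left without it. NS398 inhibits the prostaglandin-forming enzyme COX2 selectively. The members were 38 listed genes: 19 synthetase genes of the cytosol, 16 of the mitochondrion (named with the suffix 2) and 3 genes for noncatalytic proteins of the multisynthetase complex (AIMP1, AIMP2 and EEF1E1). A member counted as measured if a probe set of the array named it alone, which held for 33 of 38 members (17 cytosolic, 15 mitochondrial and AIMP1) of 19775 such genes in all, with 70 of the 54675 probe sets. The probe sets of MARS1, QARS1 and TARS2 also name a microRNA gene, and none names AIMP2 or EEF1E1 alone, so no value is given for these 5 genes. RNA from 3 samples labelled NS398-treated and 3 labelled control was hybridised to HG-U133 Plus 2.0 arrays, each sample to its own array. According to the methods of the study the drug was dissolved in DMSO and given in medium without fetal calf serum, and the controls received DMSO. The labels give neither dose nor time, name no batch and leave unsaid whether the samples were separate cultures, while the study calls them biological replicates and gives dose and time in its methods. The p-values reflect the spread among these arrays.

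Each synthetase attaches its amino acid to the matching tRNAs, which then carry it to the ribosome. The cytosol and the mitochondrion use separate enzymes for most amino acids, all encoded in the nucleus, while GARS1 and KARS1 each serve both compartments and EPRS1 charges tRNA with glutamate and with proline. Several cytosolic enzymes are held together with AIMP1, AIMP2 and EEF1E1 in the multisynthetase complex. Uncharged tRNA activates the kinase GCN2 (gene EIF2AK4), which raises translation of the transcription factor ATF4, and many cytosolic synthetase genes are known targets of ATF4. ATF4 binds with C/EBP proteins to composite elements with the core letters TGATGNAA.

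Those letters were searched in the promoter windows of the members, from 250 bases before to 50 bases after the annotated start (RefSeq, GRCh38.p14), on both strands. A window was at hand for 33 of the 38 listed members. TGATGNAA occurred in 6 of the 10 cytosolic genes with a window that rose, in 0 of the 4 cytosolic genes that did not pass, in 1 of 13 measured mitochondrial genes (YARS2), and in 3.62% of all 35116 promoter windows. MARS1, which was not measured, also held it. The windows of SARS1, WARS1 and EPRS1, which rose most or nearly so, did not hold it. Of 2 related letter strings, TGACGTCA occurred in none of the windows of measured members (1.85% of all windows) and TGACGNAA in that of NARS2 (1.66% of all windows). The strings differ in at least a single fixed letter, so the same bases on a strand cannot match more than 1 of them. A match of letters is a description and not a binding site. The motifs were chosen with the expression values known, so these shares were not tested. The 6 stretches of rising cytosolic genes are shown on the strand of the gene, because they share the letters in capitals, which mark the match (read on the opposite strand in all but NARS1). They lie at chr16:70289660-70289719 (minus strand), chr11:3057418-3057451 (minus), chr7:30594819-30594877 (plus), chr9:92293698-92293736 (minus), chr18:57621815-57621848 (minus) and chr5:33440941-33440974 (plus).
AARS1: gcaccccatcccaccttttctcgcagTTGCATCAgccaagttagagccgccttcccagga
CARS1: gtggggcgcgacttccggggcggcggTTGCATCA
GARS1: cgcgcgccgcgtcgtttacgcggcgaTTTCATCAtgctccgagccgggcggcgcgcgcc
IARS1: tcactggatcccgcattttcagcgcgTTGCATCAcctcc
NARS1: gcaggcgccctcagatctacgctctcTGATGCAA
TARS1: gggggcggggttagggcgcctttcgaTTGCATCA

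The match lay 187 to 180 bases before the start in AARS1, 33 to 26 bases before it in GARS1 and 13 to 6 bases before it in IARS1. In CARS1 it ran from 2 bases before to 5 bases after the start, and in TARS1 and NARS1 it began 2 and 14 bases after it. In 5 of these 6 genes the variable letter of the motif was C, and in GARS1 it was A. The only match in a mitochondrial gene lay farther out, 197 to 190 bases before the start of YARS2, with the variable letter G.

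Most cytosolic synthetases rose, and no mitochondrial one passed the test. Values are probe set signals on a linear scale, and each gene is read from its brightest probe set. Each difference is the mean log2 signal of NS398 arrays less that of control arrays, given ± standard error (SE, n = 3 per group). This SE is moderated by limma with the spread of other probe sets, and is not that of the gene's own arrays alone. Directions follow the deposited labels. Of 25 measured genes that the text of the study describes as higher or lower, 23 go the opposite way here. Of the 19 among them that passed the limma test below, 18 do so. Each increase below therefore means a higher signal in the arrays labelled NS398. Whether the labels were exchanged was not tested, and an exchange would turn every direction given here. In an RNA extract, a change in the share of cells that hold a transcript and one in its amount per cell cannot be told apart. By limma with a variance trend, robust estimation and Benjamini-Hochberg adjustment over all probe sets (threshold 0.05), 13 of 17 cytosolic synthetases were higher and 0 were lower. Over all 19775 genes 10.1% were called, 5.23% higher and 4.85% lower, and over the 10668 genes whose mean log2 signal exceeded 7 these shares were 9.06% and 8.66%. Of 15 mitochondrial synthetases 0 passed by limma, and 5 had an unadjusted p under 0.05 (3 higher, 2 lower). Of all 54675 probe sets 10111 had such a p. With 10.1% called among all genes, the count of 0 of 15 by itself says little on these genes. The median difference was 0.79 over the cytosolic and -0.10 over the mitochondrial genes, beside 0.07 over all genes.

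**Figure D1:**
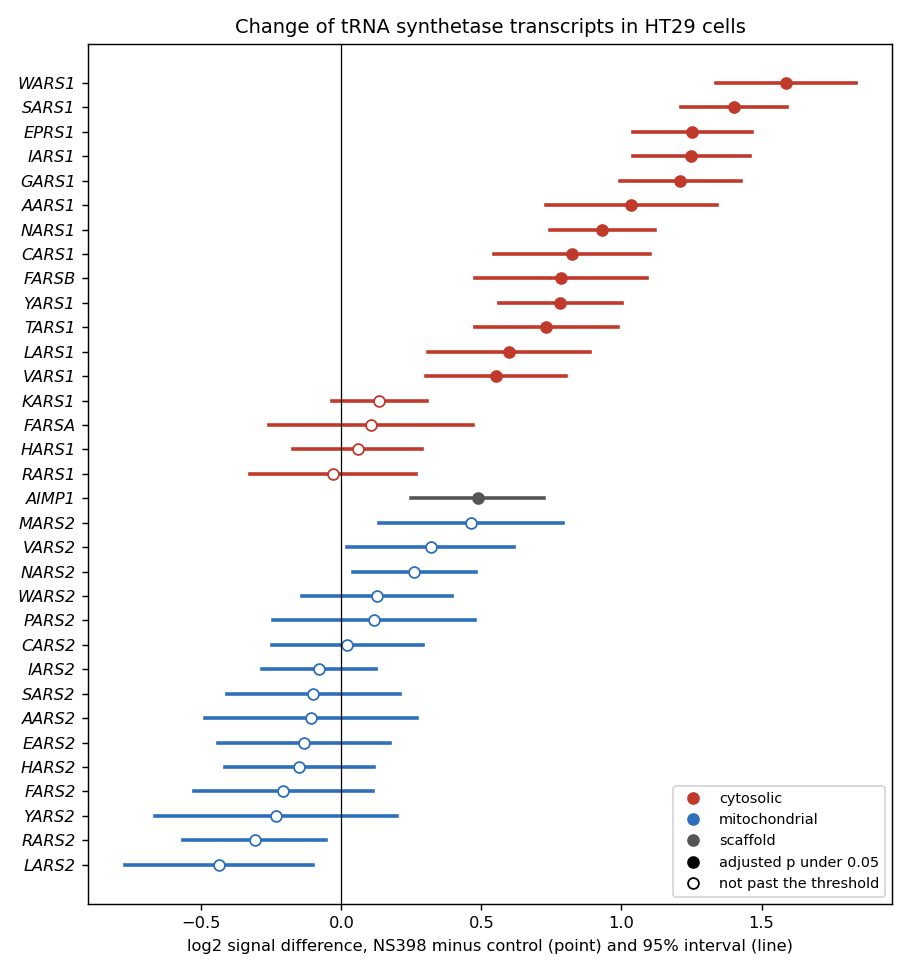
Log2 signal difference between NS398 and control arrays (horizontal axis) for the 33 measured members, each from its brightest probe set. Points are differences of the means of 3 arrays per group, lines are 95% intervals of limma with variance trend, and filled points passed an adjusted p of 0.05. The 13 filled cytosolic genes lie between 0.55 and 1.59, and the 15 mitochondrial genes lie between -0.44 and 0.46.

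The call depended on the test. Plain limma, with neither the variance trend nor robust estimation, called 0 cytosolic synthetases (smallest adjusted p = 0.0706), with 13 at an unadjusted p under 0.05. Of the mitochondrial synthetases it also called 0, with 2 at an unadjusted p under 0.05. It gave an unadjusted p under 0.05 to 7957 of all 54675 probe sets. It called 24 of them, against 3513 with both settings, and the settings were not separated. A statistic built like that of SAM, the method named by the study, with p-values from the t distribution in place of SAM's permutations, called 0 probe sets. It gave an unadjusted p under 0.05 to 438 of 54675 probe sets, fewer than chance alone would give, and to 2 cytosolic and 0 mitochondrial synthetases. Its counts of 0 therefore say nothing on whether the calls hold.

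The ACTB control probe sets separated the groups, and those of GAPDH and 18S rRNA overlapped between them. The signal of the 3' ACTB probe set, divided by that of the 5' one, was 1.27 to 1.33 in control and 1.45 to 1.71 in NS398 arrays (exact permutation p = 0.1), and that of GAPDH was 0.969 to 1.08 and 1.04 to 1.21 (exact permutation p = 0.5). The signal of the 3' probe set of 18S rRNA ran from 3453 to 4856 in control and from 4825 to 23625 in NS398 arrays (exact permutation p = 0.2), and its 5' and middle probe sets gave exact permutation p = 0.5 and 0.7. The part of these measures in the increase of the cytosolic synthetases was not tested. The mean of the array medians was 0.12 higher on the log2 scale in NS398 arrays, and after centring 10 of 17 cytosolic synthetases passed, with a median of 0.66 against -0.22 for the mitochondrial ones. FARSB (adjusted p = 0.0523), LARS1 (0.134) and VARS1 (0.158) were the cytosolic genes whose call was lost in this way. Of 12 markers of colon epithelium, EPCAM, CDH1, KRT8, KRT18, KRT19, KRT20, VIL1 and LGALS4 had mean signals of 2030.5 to 44462, while those of CDX1, CDX2, CDH17 and GPA33 were 25.9 to 111. KRT20 rose by 1.15, LGALS4 by 0.38 and GPA33 by 1.58, and VIL1 fell by 0.71. The calls of GPA33 and LGALS4 were lost after median centring (limma adjusted p = 0.0772 and 0.205), and held in 4 of 15 and 9 of 16 alternatives. The summed signal of 8 fibroblast markers was 673 to 975 in control and 890.2 to 1050.3 in NS398 arrays, with LUM higher by 2.24. For 5 leukocyte markers the sums were 187 to 229 and 232 to 241, and for 5 endothelial markers 172 to 301 and 234 to 299.6.

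Tryptophanyl-tRNA synthetase and seryl-tRNA synthetase showed the largest increases. The signal of WARS1 was 1609.9, 1907 and 2043 in the control arrays and 5494, 5503 and 5617 in the arrays labelled NS398. It rose 3-fold (1.59 ± 0.11, limma adjusted p = 2.92e-05). SARS1 had signals of 6449, 5942 and 6074 in the control arrays and 16819, 15688 and 16259 in the arrays labelled NS398, and rose 2.64-fold (1.40 ± 0.09, limma adjusted p = 1.08e-05). For both genes the lowest array labelled NS398 exceeded the highest control array by far more than the arrays of a group differed. Their second probe sets gave differences of 1.49 ± 0.15 (adjusted p = 1.99e-04) for WARS1 and 1.76 ± 0.14 (adjusted p = 4.70e-05) for SARS1 by limma. WARS1 is also known as an interferon-induced gene.

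EPRS1, IARS1 and GARS1 followed with similar values. EPRS1, the fused enzyme for glutamate and proline, had signals of 6038, 5863 and 5157 in the control arrays and 13923, 13896 and 12757 in the arrays labelled NS398 (1.25 ± 0.10, limma adjusted p = 4.29e-05). IARS1, for isoleucine, had 10137, 8313 and 8822 in the control arrays and 22385, 21348 and 20927 in the arrays labelled NS398 (1.25 ± 0.10, limma adjusted p = 3.85e-05). GARS1, the glycine enzyme of both compartments, had 8036, 6604 and 7007 in the control arrays and 17177, 16943 and 15822 in the arrays labelled NS398 (1.21 ± 0.10, limma adjusted p = 5.39e-05). The 3 genes rose 2.38, 2.38 and 2.31-fold, without overlap between the groups, and their differences lay within 1 SE of each other. The further probe sets of EPRS1 gave 1.17 ± 0.09 (limma adjusted p = 3.85e-05) and 0.78 ± 0.23 (0.0724, not called).

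Alanyl-, asparaginyl- and cysteinyl-tRNA synthetase formed the middle of the range. AARS1 had signals of 6157, 4096 and 4708 in the control arrays and 9715, 9605 and 10946 in the arrays labelled NS398 (1.03 ± 0.14, limma adjusted p = 0.0013). NARS1 had 8208, 8019 and 8869 in the control arrays and 16382, 15755 and 15674 in the arrays labelled NS398 (0.93 ± 0.09, limma adjusted p = 1.35e-04). CARS1 had 8048, 5651 and 6148 in the control arrays and 11742, 10994 and 12010.1 in the arrays labelled NS398 (0.82 ± 0.13, limma adjusted p = 0.00283). Control replicate 1 was the highest control array for AARS1 and CARS1, and all arrays labelled NS398 lay above it. A second bright probe set of CARS1 differed by 0.84 ± 0.16 (limma adjusted p = 0.00977). Its other probe sets did not pass, with 0.50 ± 0.17 (limma adjusted p = 0.125) and, on a dim probe set, -0.02 ± 0.51 (0.989).

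The enzymes for phenylalanine, tyrosine, threonine, leucine and valine rose less. FARSB, the beta subunit of the phenylalanine enzyme, had signals of 2318, 1704 and 1879 in the control arrays and 2952, 3665 and 3510.2 in the arrays labelled NS398 (0.79 ± 0.14, limma adjusted p = 0.00649). YARS1 had 4881, 4157 and 4540.3 in the control arrays and 7514, 7571 and 8235 in the arrays labelled NS398 (0.78 ± 0.10, limma adjusted p = 9.30e-04). TARS1 had 6357, 7915 and 8402 in the control arrays and 13449, 11628 and 12376 in the arrays labelled NS398 (0.73 ± 0.12, limma adjusted p = 0.00335). These 3 genes rose 1.72, 1.72 and 1.66-fold, and no array labelled NS398 fell into the control range. LARS1 had signals of 4308, 4749 and 5921 in the control arrays and 8084, 7879.9 and 6595 in the arrays labelled NS398 (0.60 ± 0.13, limma adjusted p = 0.0203). VARS1 had 2435, 2446 and 2497 in the control arrays and 3403, 3330.0 and 4127 in the arrays labelled NS398 (0.55 ± 0.11, limma adjusted p = 0.0145). LARS1 was called on 3 of its 4 probe sets, with differences of 0.52 to 0.68 over the 4. The other probe set of VARS1 differed by -0.18 ± 0.20 (adjusted p = 0.701), so the probe sets of this gene disagree. Leaving out control replicate 2, NS398 replicate 1 or NS398 replicate 2 raised the adjusted p of LARS1 to 0.062, 0.1 and 0.101. VARS1 had 0.0602 without control replicate 3 and 0.0582 without NS398 replicate 3.

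Of the cytosolic enzymes, 4 did not pass the test. KARS1, the lysine enzyme of both compartments, had signals of 17985, 18294 and 17531 in the control arrays and 20239, 19659 and 19189 in the arrays labelled NS398, and its difference was 0.14 ± 0.08 (95% interval -0.04 to 0.30, limma adjusted p = 0.401). Its groups did not overlap, although the difference was small. The histidine enzyme HARS1 had 2284, 2255 and 2272 in the control arrays and 2289, 2306 and 2502 in the arrays labelled NS398 (0.06 ± 0.10, interval -0.17 to 0.29). The arginine enzyme RARS1 had 4754, 5605 and 5852 in the control arrays and 6049, 4353 and 5554 in the arrays labelled NS398 (-0.03 ± 0.14, interval -0.33 to 0.27). FARSA, the alpha subunit of the phenylalanine enzyme, had 1473, 952 and 1216 in the control arrays and 1264, 1414 and 1191 in the arrays labelled NS398 (0.11 ± 0.17, interval -0.26 to 0.47). The groups of RARS1 and FARSA overlapped, and the upper bounds of all 4 intervals were 0.27 to 0.47. That of FARSA, 0.47, lay above the lower bounds of VARS1 (0.30) and LARS1 (0.31), which passed. The intervals therefore do not separate the genes that passed from those that did not. The subunits of the phenylalanine enzyme thus had differences of 0.11 for FARSA and 0.79 for FARSB, and the enzymes that serve both compartments had 1.21 for GARS1 and 0.14 for KARS1. The differences within these couples of genes were not tested. After centring each array on its median, the difference was -0.06 for HARS1 and -0.02 for FARSA, on the other side of 0.

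Rising genes were found in both enzyme classes and both inside and outside the multisynthetase complex. Of the measured cytosolic enzymes of class I, which share a nucleotide-binding fold, 6 of 7 rose (median 0.78), and of those of class II 6 of 9 rose (median 0.79). EPRS1, which joins an enzyme of each class, was counted in neither and rose too. Of 5 measured cytosolic enzymes of the complex 3 rose (EPRS1, IARS1 and LARS1, but not KARS1 or RARS1), with a median of 0.60. Outside the complex 10 of 12 rose, with a median of 0.80. No test compared these groups.

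AIMP1, the only measured complex protein without an enzyme activity, had signals of 4169, 3534 and 4153 in the control arrays and 6004, 5341 and 5252 in the arrays labelled NS398 on its brightest probe set (0.49 ± 0.11, limma adjusted p = 0.0212). Its other probe sets gave 0.07 ± 0.17 and 0.02 ± 0.16 (limma adjusted p = 0.87 and 0.97), so the increase of AIMP1 rests on a single probe set. Its adjusted p was 0.0659 without control replicate 2, 0.0605 without control replicate 3, 0.111 without NS398 replicate 1 and 0.0782 without NS398 replicate 2.

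**Figure D2:**
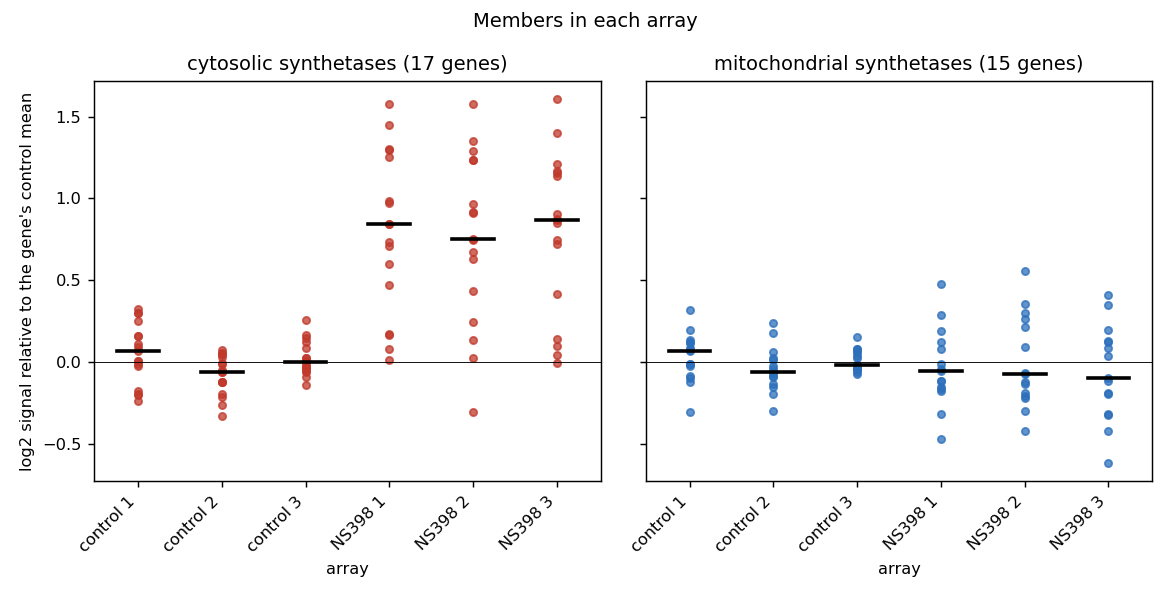
Signal of each measured synthetase in each of the 6 arrays (horizontal axis), as log2 relative to the gene's own mean over the 3 control arrays (vertical axis). Points are genes and black bars are medians. The medians of the 17 cytosolic genes are 0.75 to 0.87 in the NS398 arrays and -0.06 to 0.07 in the control arrays, and those of the 15 mitochondrial genes are -0.10 to -0.06 and -0.06 to 0.07.

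None of the mitochondrial synthetases passed the adjusted threshold, and their differences lay on both sides of 0 (6 positive, 9 negative). MARS2, the mitochondrial methionine enzyme, had the largest positive difference. Its signals were 479.8, 518 and 543 in the control arrays and 714, 756 and 654 in the arrays labelled NS398 (0.46 ± 0.15, limma adjusted p = 0.104). It passed (adjusted p = 0.0435) when only probe sets whose mean log2 signal exceeded 7 were tested. NARS2, for asparagine, had signals of 2692, 2672 and 2789 in the control arrays and 3318, 3338 and 3110.0 in the arrays labelled NS398 (0.26 ± 0.10, limma adjusted p = 0.177). VARS2, for valine, had 1409.6, 1105 and 1192 in the control arrays and 1403, 1571 and 1636 in the arrays labelled NS398 (0.32 ± 0.14, limma adjusted p = 0.234), with overlapping groups. LARS2, for leucine, had the largest negative difference. Its signals were 789.5, 634 and 767 in the control arrays and 525, 542 and 544 in the arrays labelled NS398 (-0.44 ± 0.15, limma adjusted p = 0.135). RARS2, for arginine, had 1425, 1457 and 1419 in the control arrays and 1151, 1167 and 1152 in the arrays labelled NS398 (-0.31 ± 0.12, limma adjusted p = 0.167). For LARS2 and RARS2 every array labelled NS398 lay below every control array, and all 6 probe sets of RARS2 had negative differences (-1.25 to -0.19), 4 of them on probe sets whose mean log2 signal was under 7.

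The other mitochondrial enzymes differed by -0.23 (YARS2) to 0.13 (WARS2). IARS2, the brightest of the mitochondrial probe sets, had signals of 6626, 5930.1 and 6442 in the control arrays and 6080.4, 6026 and 5847 in the arrays labelled NS398 (-0.08 ± 0.09, interval -0.28 to 0.12). SARS2 had 876, 804 and 801 in the control arrays and 763, 709 and 846 in the arrays labelled NS398 (-0.10 ± 0.14, interval -0.41 to 0.21). WARS2 had 1171, 1244 and 1163 in the control arrays and 1259.8, 1385 and 1264 in the arrays labelled NS398 (0.13 ± 0.12, interval -0.14 to 0.39). The intervals of these counterparts of IARS1, SARS1 and WARS1 reached at most 0.39, below the lower bounds of the cytosolic enzymes (1.04, 1.21 and 1.34). AARS2, CARS2, EARS2, FARS2, HARS2 and PARS2 differed by -0.21 to 0.12, with overlapping groups. NS398 arrays lay above all control arrays in 3 of 15 mitochondrial genes and below them in 2, against 17.2% and 13.5% of all genes. Of the 17 cytosolic genes 15 lay above and 0 below.

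To set the change of each cytosolic enzyme against that of its mitochondrial counterpart, the log2 signal of the mitochondrial gene was subtracted from that of the cytosolic gene in each array and tested between the groups. In all, 15 couples could be formed, with EPRS1 and FARS2 each in more than 1, so they are not independent. The difference was larger for the cytosolic gene in 15 of 15, with a median excess of 1.01. The values of the arrays labelled NS398 lay above those of all control arrays in 13 of 15. For single genes these shares were 17.2% above and 13.5% below. No share was computed over couples of other genes, so the count of 13 has no direct background. It includes FARSA with FARS2 (excess 0.31) and HARS1 with HARS2 (0.21), genes that were not called. The SE of an excess comes from the arrays of that couple alone and, unlike the SE of single genes, is not moderated. For SARS1 and SARS2 the values relative to the control mean were -0.02, -0.01 and 0.03 in control and 1.57, 1.57 and 1.37 in NS398 arrays. Their excess was 1.50 ± 0.07 (SE). For WARS1 and WARS2 it was 1.46 ± 0.11, for EPRS1 and EARS2 1.38 ± 0.09, and for IARS1 and IARS2 1.33 ± 0.05. Among couples whose cytosolic gene rose, the asparagine enzymes had an excess of 0.67 ± 0.04, with -0.01, -0.04 and 0.05 in control and 0.68, 0.62 and 0.71 in NS398 arrays, and the valine enzymes had the smallest, 0.23 ± 0.13. In the valine couple (-0.21, 0.14 and 0.07 in control, 0.28, 0.08 and 0.33 in NS398 arrays) and the arginine couple (-0.17, 0.04 and 0.14 and 0.48, -0.01 and 0.36) the groups overlapped. The exact permutation test (two-sided) gave p = 0.1 for the 13 couples without overlap, the smallest p that 3 against 3 arrays allow, and adjusted p = 0.115 over the 15 couples (0.3 and 0.2 before adjustment for the arginine and valine couples). No couple could therefore reach an exact p of 0.05. Since median centring subtracts the same value from both genes, it leaves these values as they are.

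**Figure D3:**
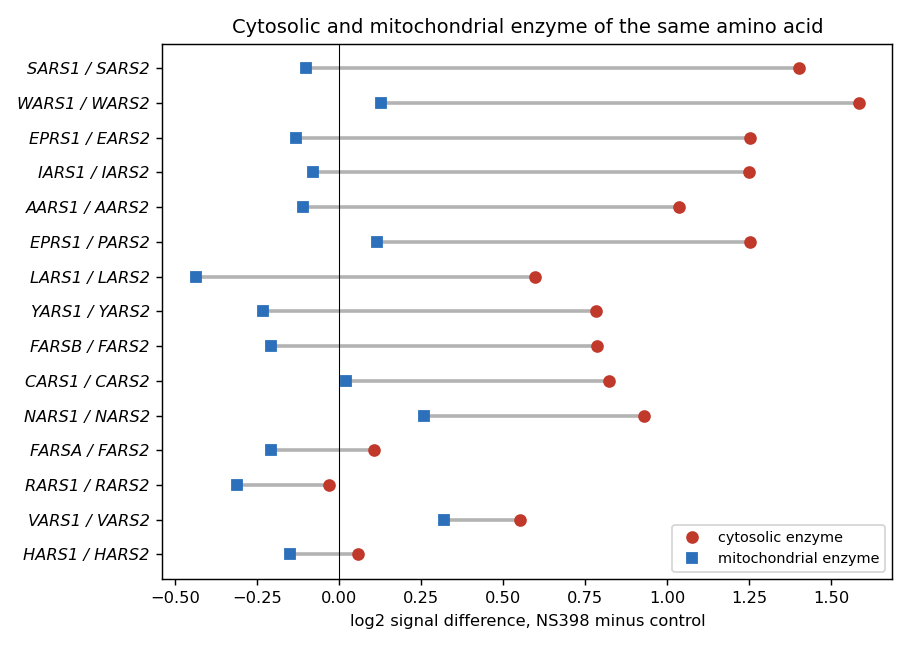
Log2 signal difference, NS398 minus control, of the cytosolic (circles) and mitochondrial (squares) enzyme for the same amino acid in 15 couples, ordered by the excess of the cytosolic enzyme. The excess runs from 0.21 for HARS1 and HARS2 to 1.50 for SARS1 and SARS2.

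Over all probe sets of the members, 19 of 34 cytosolic probe sets and 0 of 33 mitochondrial ones were called, against 6.43% of all probe sets (3.26% higher, 3.17% lower). The 17 cytosolic probe sets that are not the brightest of their gene had a median difference of 0.53, and 6 were called, all higher. The 18 further mitochondrial ones had a median of -0.14. The widest single difference came from a dim CARS2 probe set, which had 39.2, 59.6 and 67.7 in control and 9.1, 7.2 and 25.9 in NS398 arrays (limma adjusted p = 0.145), while the brightest CARS2 probe set had 2322, 2028 and 2013 in control and 1908, 2256 and 2302 in NS398 arrays.

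**Figure D4:**
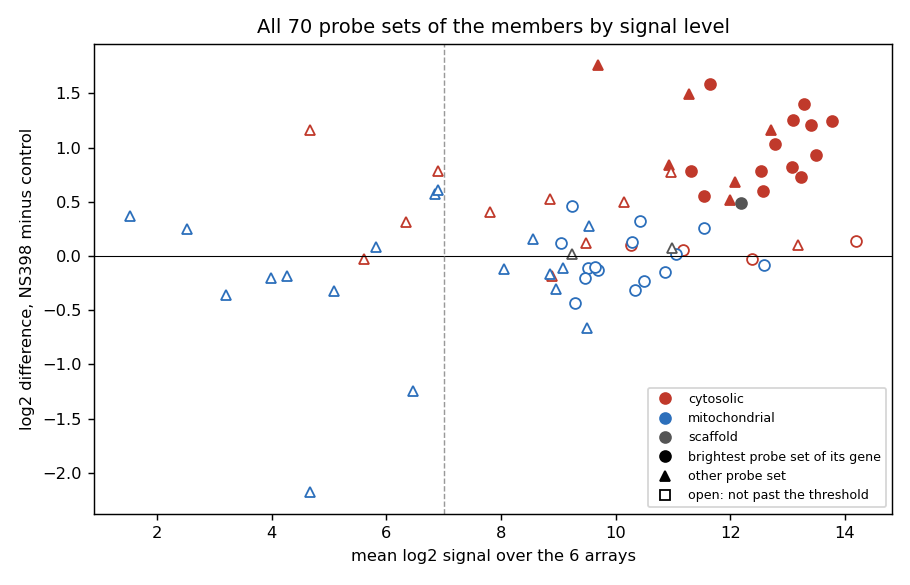
Log2 signal difference (vertical axis) against the mean log2 signal over the 6 arrays (horizontal axis) for all 70 probe sets of the members. Filled symbols passed an adjusted p of 0.05, circles are the brightest probe set of each gene, and the dashed line marks a mean log2 signal of 7. Each filled symbol lies right of that line, and none belongs to a mitochondrial gene.

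Most listed genes of the ATF4 response rose alongside. Of 12 measured genes of this response and of the sensing of uncharged tRNA, 9 rose and 0 fell, with a median of 1.15. Among all genes 5.23% were called higher and 4.85% lower. IMPACT, PPP1R15A and GCN1 did not pass (0.76, -0.44 and -0.11). Of the sensing genes EIF2AK4, GCN1 and IMPACT, only EIF2AK4 was therefore called. ATF4 itself had signals of 20865, 20235 and 19065 in the control arrays and 41874, 41219.5 and 40492 in the arrays labelled NS398 (1.04 ± 0.07, limma adjusted p = 3.06e-05). EIF2AK4, the sensor kinase, had 661, 862 and 938 in the control arrays and 1434, 1365 and 1223 in the arrays labelled NS398 (0.72 ± 0.16, limma adjusted p = 0.0197) and kept its call in 8 of 16 alternatives. ASNS, which makes asparagine, had 3978, 4334 and 4584 in the control arrays and 14259.5, 13326 and 13079 in the arrays labelled NS398 (1.66 ± 0.10, limma adjusted p = 5.89e-06). ATF4, EIF2AK4 and the genes that did not pass were named after their values were seen. CHAC1, TRIB3 and PSAT1 rose by 2.61, 2.31 and 1.70. The list was drawn up with the response of this pathway known, and its count is no independent evidence.

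Genes of other steps in the life of a tRNA were called in both directions, and XPOT had the largest difference among them. Of 22 measured genes of tRNA processing and export 3 rose and 1 fell, with a median of -0.002, beside 10.1% called among all genes (5.23% higher, 4.85% lower). XPOT, the exportin that carries tRNA out of the nucleus, had signals of 4147, 3928 and 4619.7 in the control arrays and 15626, 15327 and 14043 in the arrays labelled NS398 (1.83 ± 0.10, limma adjusted p = 4.61e-06), a larger difference than that of any measured synthetase. TSEN15, a subunit of the tRNA splicing endonuclease, rose by 1.10 ± 0.12 and RPP40, a subunit of ribonuclease P, by 1.07 ± 0.12. FAM98B, a part of the tRNA ligase complex, fell by 0.64, though its difference was 0.08 when all its probe sets were averaged. Of 42 tRNA modification genes 7 rose and 3 fell, with a median of 0.10, where the genes whose mean log2 signal exceeded 7 had 9.06% higher and 8.66% lower. METTL1, a tRNA methyltransferase, and PUS1, a pseudouridine synthase, rose by 0.82 and 0.70, and ELP5, a subunit of Elongator, fell by 0.94. TRMT5, another methyltransferase, fell by 0.73 on its brightest probe set, but differed by 0.46 on its brightest probe set not marked as shared by sequence (limma adjusted p = 0.155). Of 8 genes of selenocysteine synthesis and proofreading, only DTD1, a deacylase that removes D-amino acids from tRNA, passed (0.41, called in 7 of 16 alternatives). This count is near the 10.1% called among all genes. The median of the 8 genes was 0.40, and 4 had an unadjusted p under 0.05 by limma, against 1 by plain limma.

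Few genes that deliver charged tRNA to the ribosome were measured in the cytosol, and none was called. Of the 4 measured cytosolic elongation factor genes 0 passed by limma, with 2 at an unadjusted p under 0.05, and plain limma gave 0 by either measure. With 10.1% called among all genes, a count of 0 of 4 says nothing particular on these genes. Their differences were 0.10 to 0.43, with a median of 0.24. In the mitochondrion, 3 of 9 translation factor genes rose, beside 5.23% of all genes: MTIF2, an initiation factor, by 0.73, the recycling factor MRRF by 0.49 and the elongation factor GFM1 by 0.41. MRRF and GFM1 kept their call in 7 of 16 alternatives each. None of the 4 genes that make mitochondrial glutaminyl- and formylmethionyl-tRNA passed by limma (median 0.04), with 1 at an unadjusted p under 0.05 and 0 by plain limma. Beside the 10.1% of all genes this count too is uninformative. Of 77 genes listed by name as mitochondrial ribosomal proteins 6 rose and 5 fell, with a median of 0.07. The count of calls lies between those that the shares of all genes (10.1%) and of the brighter genes (9.06% higher and 8.66% lower) would give. At an unadjusted p under 0.05 the list had 36 of 77 genes by limma, beside 10111 of all 54675 probe sets. By plain limma it had 11 of 77, beside 7957 of all probe sets. The list holds, by their names, the pseudogene MRPL45P2 and the antisense RNA MRPL20-AS1, which code for no such protein and were not called. MRPS10 rose by 0.74, and MRPL49, MRPL14 and MRPL27 fell by 0.70, 0.63 and 0.55.

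**Figure D5:**
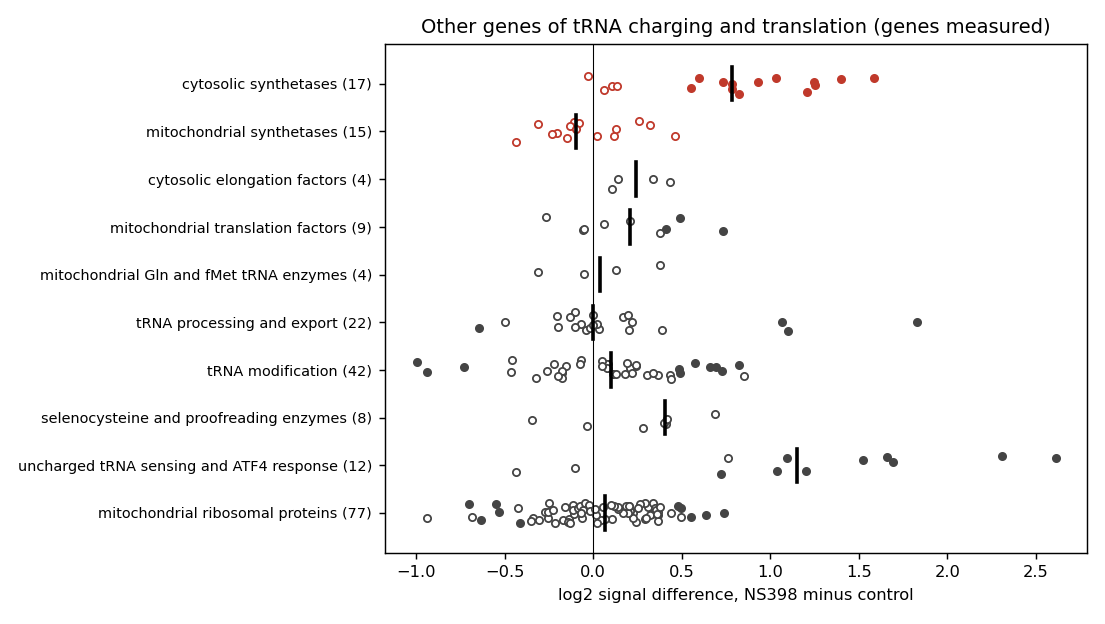
Log2 signal difference, NS398 minus control (horizontal axis), of the genes measured in each list, with the number of genes in brackets. Points are genes, filled if they passed an adjusted p of 0.05, and black bars are medians. The medians are 0.79 for cytosolic and -0.10 for mitochondrial synthetases and 1.15 for the list of uncharged tRNA sensing and ATF4 response. For the list named after mitochondrial ribosomal proteins, which also holds a pseudogene and an antisense RNA, the median is 0.07.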

How the data were processed

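The study hybridised biotinylated cRNA of 6 HT29 samples to HG-U133 Plus 2.0 arrays. The authors deposited linear intensity values, 1 signal per probe set and array, with a mean of 500 after trimming 2% at each end and medians of 65 to 80.2. The methods name gcRMA with quantile normalisation, yet the quantiles of the arrays differ, and the scale of the values is that of MAS 5.0. In the submitters' processing notes, affy is the only tool named. Signals were used as log2 with no offset. Probe sets were named by the platform annotation, with symbols updated through Entrez identifiers and RefSeq: 41097 (75.2%) name 1 gene, 1801 several and 11777 none.

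A limma model (version 3.58.1, R 4.3.3) was fitted to every probe set, moderated by eBayes with variance trend and robust estimation, and p-values were adjusted over all 54675 probe sets. Couples of genes were compared by exact permutation over arrays. The procedure was tested on simulated data. The number of arrays limits precision. Between arrays, Pearson's r over probe sets brighter than a mean log2 of 7 was 0.961 to 0.983 within and 0.931 to 0.952 between groups. Members and lists were chosen with earlier results of these data known, and 16 alternatives were run. Named genes were all members and up to 4 called genes per list with the smallest p. Promoter sequences are from RefSeq. Figures were drawn with matplotlib 3.10.9.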

Additional observations from a re-analysis of the deposited data

How the results depend on the processing

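Plain limma, without variance trend and robust estimation, called 24 probe sets in all, 0 cytosolic synthetases, 0 complex genes and 1 of 178 genes of the pathway lists, and the statistic built like that of SAM 0 of each, against 3513, 13, 1 and 38 with both settings. At an unadjusted p under 0.05 they had 7957 and 438 probe sets, against 10111. Median centring gave medians of 0.664 (cytosolic) and -0.222 (mitochondrial), 0 complex genes and 23 list genes, and the differences of FARSA (-0.015), HARS1 (-0.063), CARS2 (-0.1) and PARS2 (-0.005), none called, changed sign. When the probe sets of each gene were averaged, the cytosolic median was 0.594, 0 complex genes were called and 10 of 15 couples did not overlap, against 13. The calls of CARS1, FARSB and VARS1 were then lost (adjusted p = 0.0548, 0.0813 and 0.424 by limma), and CARS2 (-0.249), EARS2 (0.015) and FAM98B (0.077) changed sign. Without probe sets marked as shared by sequence (_s, _x or _a), 6 of 12 cytosolic, 0 complex and 22 of 124 list genes were called and 7 of 10 couples did not overlap. Some genes had no probe set left and others, such as AIMP1, FARSB and YARS1, were read from a probe set that did not pass, and TRMT5 changed sign (0.462). Testing only probe sets brighter than a mean log2 of 7 added 1 mitochondrial gene (MARS2). Quantile normalisation, an offset of 32 and array weights each called 13 cytosolic, 0 mitochondrial and 1 complex gene.

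Leaving out an array changed the number of called probe sets to between 1826 and 3984 (1876 without control replicate 3, 1826, 1896 and 2340 without NS398 replicates 1, 2 and 3), that of list genes to between 21 and 46 (24 and 21 without NS398 replicates 1 and 2), and that of complex genes to between 0 and 1. The cytosolic count was 12 to 13 and its median 0.722 to 0.909. Uncalled members that changed sign were FARSA (-0.057 to 0.257), RARS1 (-0.13 to 0.107), AARS2 (-0.26 to 0.049) and CARS2 (-0.029 to 0.107). No call of a member changed sign under any alternative.

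The replicate numbers gave no sign of pairing the arrays. Deviations of equal numbers correlated at -0.137, -0.063 and -0.104, and 0 of 6 arrays were closest to their own number. With 3 arrays per group this cannot exclude a pairing. With the number as a replicate block, 13 cytosolic and 0 mitochondrial synthetases and 25 list genes were called, with 2462 probe sets in all.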
